A study of Mus musculus with 8 samples.

Results

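Acute phase genes of the liver were examined in male mice lacking biglycan. The 10 genes were the pentraxins Apcs and Crp, the serum amyloid A genes Saa1, Saa2, Saa3 and Saa4, the orosomucoids Orm1 and Orm2, haptoglobin (Hp) and lipocalin 2 (Lcn2). All probes that the platform table assigns to these symbols were taken, which gave 12 of 25697 probes, for 10 of 16593 named genes. Hp had 3 probes and each other gene had 1. All 12 were above background on all 8 arrays, so the filter on dim probes removed none.

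RNA of whole liver was read on Illumina bead arrays of 1 colour from 4 wild type mice and 4 mice with a knockout of Bgn, the gene of the extracellular matrix proteoglycan biglycan. All mice were males of 13 weeks, labelled as C57BL/6, fed a rodent diet without restriction, and the labels name no treatment. Each mouse gave 1 flash-frozen liver sample and 1 array. The removed part of Bgn, the way the line was made and the hour of collection are not stated in the labels. The values compare acute phase transcripts between these groups of mice.

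The acute phase response is the change in the liver's secreted proteins after infection or injury. Cytokines such as interleukin 6 and interleukin 1 reach the hepatocyte, and STAT3, C/EBP factors and NF-kB raise transcription of the positive acute phase genes, while the output of albumin and other negative acute phase proteins falls. The pentraxins bind ligands such as bacterial surfaces and chromatin and engage complement and Fc receptors. In the mouse, serum amyloid P component, encoded by Apcs, is the major pentraxin of this response, whereas C-reactive protein has that role in humans. Biglycan itself, when released from the matrix, is known as a ligand of Toll-like receptors on macrophages.

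Sequences upstream of 5 of these genes are shown. The pentraxins Apcs and Crp were taken because they are neighbours in the order of tested genes on chromosome 1 and differed in these data. The serum amyloid A genes Saa1, Saa2 and Saa3 were taken because they varied between mice in different ways. The RefSeq promoter table (build GRCm38.p6) held 8 of the 10 genes, and Orm1 and Hp had no entry. Each window is the 250 bases before the annotated start of the gene, written 5′ to 3′ on the gene's strand. Capitals mark matches, on either strand, to the C/EBP letters TTNNGNAA or to the STAT letters TTCNNNGAA.
Apcs, chr1:172895055-172895304, minus strand: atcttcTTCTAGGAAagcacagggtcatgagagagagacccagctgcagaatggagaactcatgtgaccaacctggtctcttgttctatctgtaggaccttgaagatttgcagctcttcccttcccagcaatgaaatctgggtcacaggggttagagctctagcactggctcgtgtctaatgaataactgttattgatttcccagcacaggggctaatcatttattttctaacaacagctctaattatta
Crp, chr1:172697806-172698055, plus strand: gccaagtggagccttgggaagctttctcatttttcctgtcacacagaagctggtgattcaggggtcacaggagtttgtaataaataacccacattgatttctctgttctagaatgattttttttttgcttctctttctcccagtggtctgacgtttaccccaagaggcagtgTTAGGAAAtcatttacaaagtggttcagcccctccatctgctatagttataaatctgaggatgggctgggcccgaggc
Saa1, chr7:46742981-46743230, minus strand: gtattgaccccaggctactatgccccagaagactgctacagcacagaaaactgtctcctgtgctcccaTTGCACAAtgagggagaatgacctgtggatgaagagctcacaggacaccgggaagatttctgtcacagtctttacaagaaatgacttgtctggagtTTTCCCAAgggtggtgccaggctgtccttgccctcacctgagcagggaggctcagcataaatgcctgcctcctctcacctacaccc
Saa2, chr7:46751583-46751832, plus strand: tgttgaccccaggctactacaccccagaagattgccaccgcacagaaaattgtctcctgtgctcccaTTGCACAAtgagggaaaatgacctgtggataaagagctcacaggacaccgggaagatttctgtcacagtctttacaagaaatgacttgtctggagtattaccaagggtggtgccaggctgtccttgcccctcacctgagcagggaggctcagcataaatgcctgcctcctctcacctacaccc
Saa3, chr7:46715677-46715926, minus strand: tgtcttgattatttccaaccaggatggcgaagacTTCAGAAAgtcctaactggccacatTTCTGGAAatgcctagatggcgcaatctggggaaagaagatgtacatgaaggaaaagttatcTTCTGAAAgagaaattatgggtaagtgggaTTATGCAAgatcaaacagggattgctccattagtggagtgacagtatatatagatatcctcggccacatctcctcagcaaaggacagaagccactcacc

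The Apcs window held 1 STAT match, 244 to 236 bases before the start, and no C/EBP match. The Crp window held 1 C/EBP match, 78 to 71 bases before the start, and no STAT match. Over the 8 windows, the C/EBP letters were found for 7 genes and the STAT letters for 1, against 36.8% and 7.02% of the 32851 windows of the same length in the table. The NF-kB consensus, searched on both strands, was found in 0 of the 8 windows and in 7.25% of all windows. The Saa1 and Saa2 windows were 94.8% identical over an alignment of 251 positions, while those of Apcs and Crp were 49.8% identical. These matches describe the letters in these windows and nothing about binding.

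Of the 12 probes, the one for Apcs was higher in Bgn knockout livers and the other 11 did not pass the test. Apcs rose 4.48-fold. This is 1 of 12 probes called, against 1.10% of all 11494 tested probes in either direction (127 probes), 0.383% in the higher direction and 0.722% in the lower direction. A call means a Benjamini-Hochberg adjusted p under 0.05 over all tested probes in limma's linear model. By gene, the median log2 change of the 10 members was -0.068, and that of all 8105 tested genes was -0.0030.

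Values are given on 2 scales below, and sums over marker genes are of the normalized intensity before log2. The deposited intensity is the scanner signal without background subtraction. The log2 intensity is background-corrected and normalized between arrays, and fold changes and tests refer to it. Levels of different probes cannot be compared with each other.

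Apcs encodes serum amyloid P component, a pentraxin that coats amyloid fibrils and chromatin. Its deposited intensity was 506, 611, 759 and 803 on wild type replicates 1 to 4. On Bgn knockout replicates 1 to 4 it was 1623, 3806, 3341 and 2838. Each knockout array lay above each wild type array, and replicate 1 was the lowest of the knockout arrays. Apcs was the 1 probe of the 12 whose groups did not overlap, against 8.07% of all tested probes in either direction and 3.66% in the higher direction. The means were 670 ± 137 and 2902 ± 940 (SD, n = 4 each), a ratio of 4.33.

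On the log2 scale, Apcs was 8.87, 9.17, 9.31 and 9.25 in wild type livers and 10.27, 11.67, 11.65 and 11.67 in knockout livers. Knockout replicates 2 to 4 were nearly equal, and knockout replicate 1 stood between them and the wild type group. The log2 change was 2.16 (SE 0.31, 95% interval 1.46 to 2.87, limma adjusted p = 0.0146). The exact two-sided permutation p over the 8 arrays was 0.0286, the smallest that the 70 assignments of the labels allow. The call depended on single arrays, although the direction did not. It was lost without wild type replicate 1, 3 or 4 or knockout replicate 3 (limma adjusted p = 0.0546, 0.0589, 0.0709 and 0.0541), and with array weights (0.0625). Without knockout replicate 1 the log2 change was 2.51 (limma adjusted p = 2.67e-06).

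Crp, whose product binds phosphocholine, did not pass. Its deposited intensity was 13990, 16469, 18353 and 17345 in wild type livers. In knockout livers it was 17419, 15215, 15593 and 14850. The groups overlapped, and the log2 change was -0.096 (SE 0.079, 95% interval -0.27 to 0.075, limma adjusted p = 0.634). The change of Apcs exceeded that of Crp by 2.26 on the log2 scale (SE 0.37, n = 4 arrays a group, exact two-sided permutation p = 0.0286, the smallest possible). Since Apcs alone separated the groups and Crp varied little, this p repeats that of Apcs and is no further support.

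**Figure D1:**
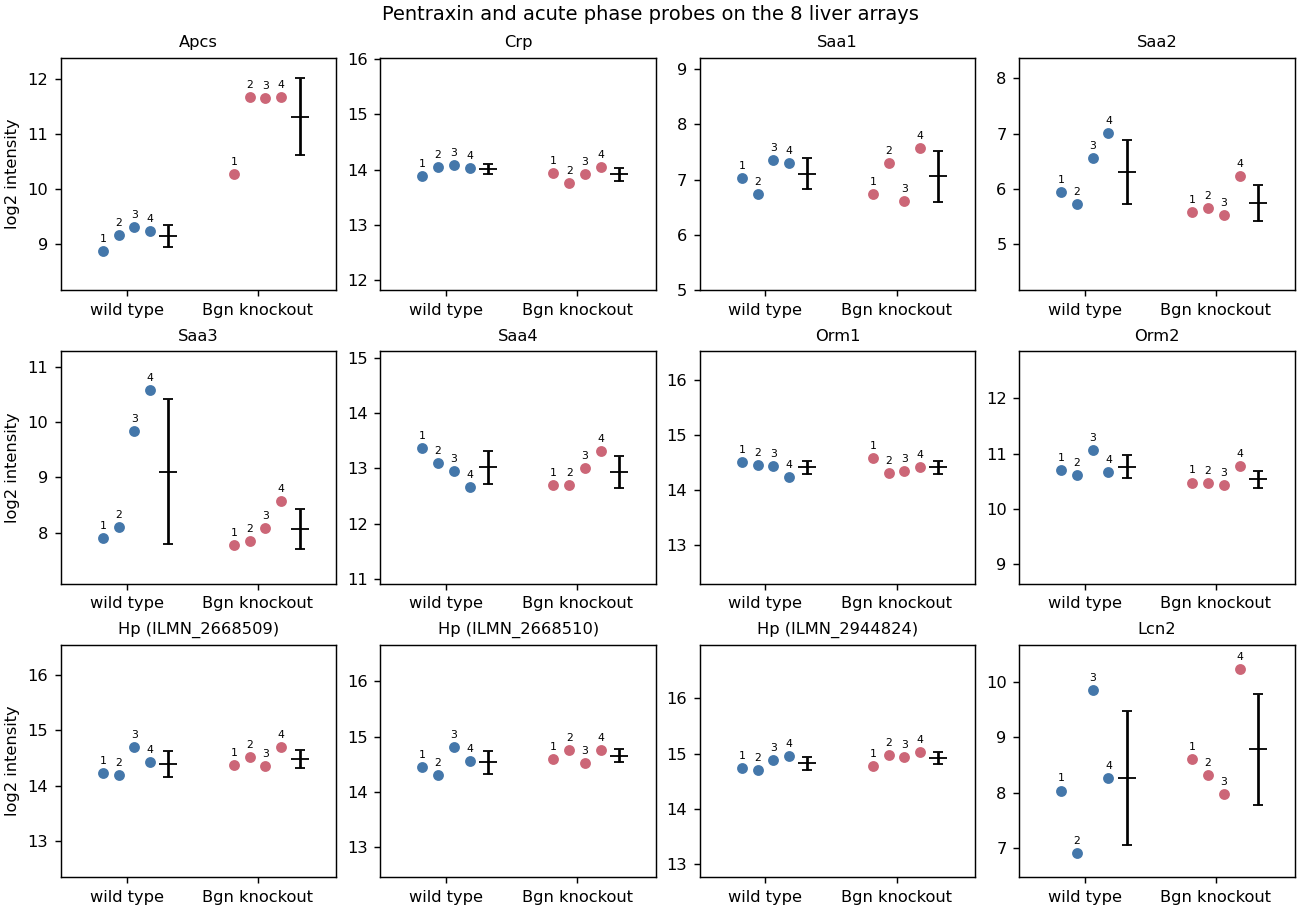
Each panel plots the normalized log2 intensity of 1 probe on the 4 wild type (blue) and 4 Bgn knockout (red) arrays, numbered by replicate, with the mean and SD in black; all panels span the same range of log2 units. Apcs alone shows separate groups, with knockout replicate 1 at 10.27 below the other knockout arrays, while Saa3 and Lcn2 spread widely within groups.

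The serum amyloid A genes did not differ past the threshold, and Saa3 and Saa2 were uneven within the wild type group. Saa1 and Saa2 encode the acute phase apolipoproteins carried on high-density lipoprotein, Saa3 is also made by macrophages and fat cells in the mouse, and Saa4 encodes the constitutive form. Symbols were assigned through Entrez numbers, since Saa1 and Saa2 are listed as each other's older names in the RefSeq gene table. Because the 2 genes are close copies and probe sequences were not used here, a probe's signal could include both transcripts, which was not tested.

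Saa3 had deposited intensities of 314, 354, 1036 and 1814 on wild type replicates 1 to 4. The knockout values were 400, 408, 389 and 415. Wild type replicates 3 and 4 were high, and on this scale all 4 knockout arrays lay between wild type replicates 2 and 3. The highest wild type array was 5.78 times the lowest, against 1.07 times in the knockout group. On the log2 scale the SD was 1.31 in wild type and 0.36 in knockout livers, and the change was -1.03 (SE 0.64, 95% interval -2.54 to 0.48, limma adjusted p = 0.539).

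Saa2 was dimmer, with deposited intensities of 168, 165, 215 and 271 in wild type livers. In knockout livers it was 189, 191, 167 and 178. Wild type replicates 3 and 4 were again the highest of all arrays. The log2 change was -0.56 (SE 0.28, 95% interval -1.18 to 0.055, limma adjusted p = 0.425), and the groups overlapped.

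Saa1 was 224, 211, 283 and 305 in wild type and 262, 321, 216 and 269 in knockout livers. These groups overlapped almost entirely, with a log2 change of -0.046 (SE 0.23, 95% interval -0.56 to 0.46, limma adjusted p = 0.952). Saa4 ranged from 7018 to 9574 in wild type and from 7518 to 8961 in knockout livers, with a log2 change of -0.091 (SE 0.17, limma adjusted p = 0.863). For Saa1 and Saa4 the sign turned when some single arrays were left out.

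The orosomucoids, plasma carriers of drugs and steroids also known as alpha-1-acid glycoproteins, did not pass. Orm1 ranged from 19935 to 24190 in wild type and from 19368 to 24755 in knockout livers, with a log2 change of 0.0044 (SE 0.080, 95% interval -0.17 to 0.18, limma adjusted p = 0.989). That value was below 0 with cyclic loess, with array weights, with median scaling and in the values the authors normalized. Orm2 was 1503, 1511, 2278 and 1943 in wild type and 1838, 1790, 1509 and 1531 in knockout livers. Its log2 change was -0.23 (SE 0.13, 95% interval -0.50 to 0.048, limma adjusted p = 0.468). Orm1 and Orm2 are also close copies, and whether either probe reads both transcripts was not tested.

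Hp encodes haptoglobin, which captures free haemoglobin, and its 3 probes gave close values of the change. The log2 changes were 0.10 (SE 0.12), 0.13 (SE 0.10) and 0.10 (SE 0.077), with limma adjusted p of 0.754, 0.626 and 0.595. With median scaling the 3 values were -0.021, -0.031 and -0.050. The brightest of these probes lay between 27303 and 32972, near the highest signal on any array (36077 to 41327), where a change may be compressed, which was not tested.

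Lcn2, an iron-withholding protein of hepatocytes and neutrophils that binds bacterial siderophores, varied most within groups of the 12 probes (SD 1.11 on the log2 scale, higher than for 99.4% of tested probes). It was 332, 223, 1045 and 474 in wild type livers and 611, 514, 368 and 1100 in knockout livers. Wild type replicate 3 and knockout replicate 4 were the highest of their groups, and the groups overlapped. The log2 change was 0.52 (SE 0.75, 95% interval -1.26 to 2.30, limma adjusted p = 0.814). An interval of that width leaves the direction undecided.

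**Figure D2:**
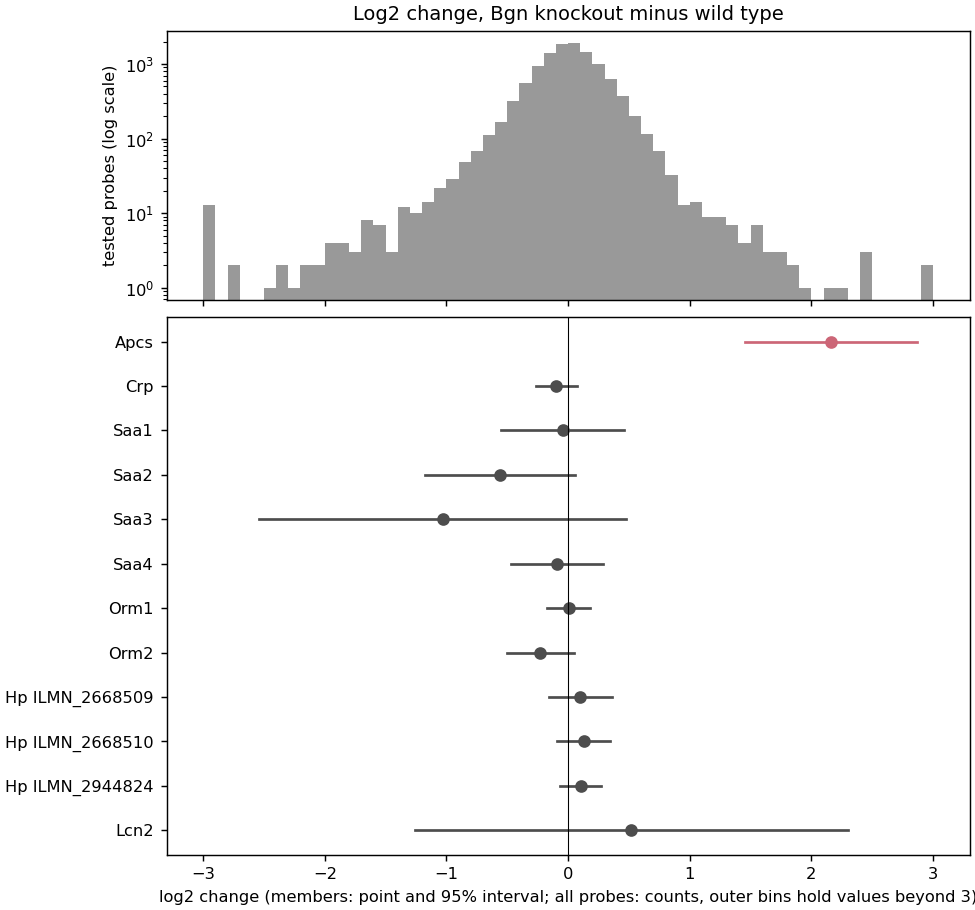
The upper panel counts all 11494 tested probes by log2 change on a logarithmic count axis, and the lower panel gives the log2 change of each of the 12 probes with its 95% interval. Apcs, in red, is the probe past the threshold at 2.16; the intervals of the other 11 include 0 and are widest for Lcn2 and Saa3.

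Within groups, several members were high on the same arrays. On wild type replicate 3, 5 of the 10 genes were the highest of their group and 9 lay above their group mean. On knockout replicate 4, 8 of the 10 were the highest and 9 lay above the group mean. Over all 8105 tested genes, wild type replicate 3 was the highest for 23.5% and knockout replicate 4 for 29.1%. For the counts above the group mean, no share over all tested genes and no other scaling is given here, so they cannot be judged. The count of genes highest on knockout replicate 4 depended on the scaling. It was 6 with median scaling, against 10.4% of all tested genes, and 4 on the deposited intensities, against 1.95% of all tested genes. With cyclic loess it was 9, against 30.0% of all tested genes, and in the authors' normalized values 9, against 29.0%. The part of the scaling in this pattern was not tested further.

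Among 23 other positive acute phase genes, wild type replicate 3 and knockout replicate 4 were both the highest for 9 (39.1%), against 11.6% of all tested genes and 4 of the 10 members. With median scaling it was 6 (26.1%), against 5.05% of all tested genes and 3 members. On the deposited intensities it was 4 (17.4%), against 0.962% of all tested genes and 2 members. With cyclic loess it was 10 (43.5%), against 11.1% of all tested genes and 6 members. In the authors' normalized values it was 9 (39.1%), against 11.6% of all tested genes and 5 members. Fgl1, a fibrinogen-like protein of the liver, was 11.57, 11.42, 13.55 and 12.73 in wild type and 11.91, 11.81, 11.69 and 12.73 in knockout livers on the log2 scale. Lbp, the lipopolysaccharide-binding protein, was 11.84 on wild type replicate 3 and 11.58 on knockout replicate 4, and the other 6 arrays lay from 10.53 to 11.24. These counts and both genes were chosen after the values were seen, so no test was made.

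**Figure D3:**
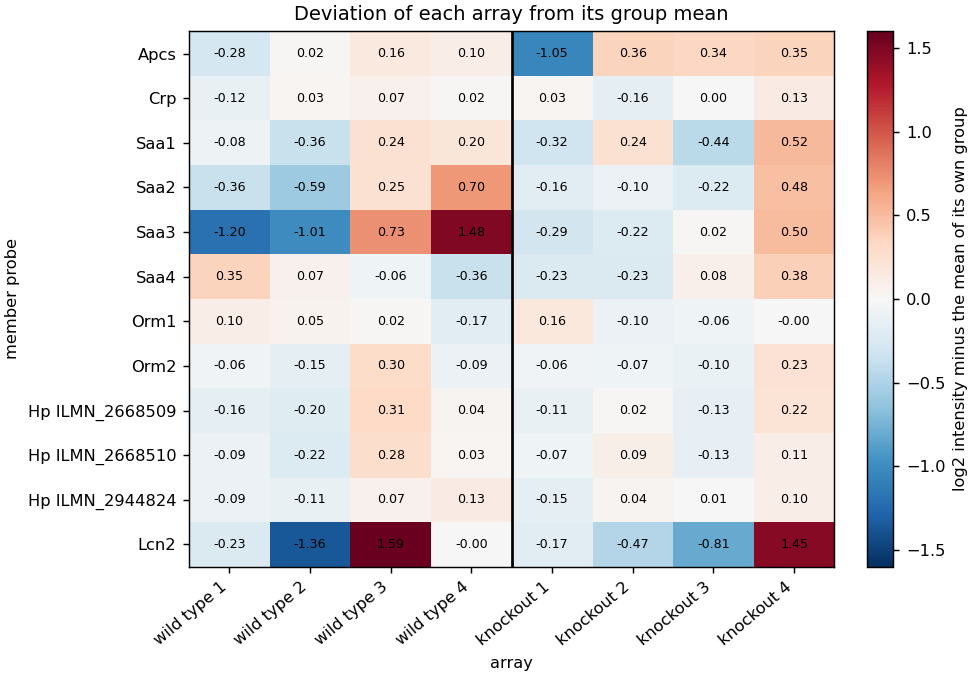
Each cell gives the log2 intensity of a member probe on 1 array minus the mean of that array's own genotype group, with red above and blue below. Lcn2 is at 1.59 on wild type replicate 3 and 1.45 on knockout replicate 4, Saa3 is at 1.48 on wild type replicate 4, and Apcs is at -1.05 on knockout replicate 1.

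Probes of like pattern were sought by the root-mean-square difference over the 8 arrays, after centring each probe on its own mean. For Apcs the nearest of 10825 probes of other named genes were Vmn1r65 (0.35 log2 units), Lcmt1 (0.43) and Slc7a2 (0.47), against a median of 1.19. Their log2 changes were 1.72, 1.75 and 2.49, a direction that the choice by likeness to Apcs fixes. Without background correction they were 0.60, 0.71 and 0.93. No wild type array had Vmn1r65 or the Slc7a2 probe above background, so the sizes of these changes are uncertain. The other tested probes of Lcmt1 had log2 changes of -0.14 and 0.051 and that of Slc7a2 had 0.42, and they did not pass. For Lcn2 the nearest were Cdkn1a, a cell cycle inhibitor (0.49), Plin5, a lipid droplet protein (0.50), and Insig2, a regulator of sterol synthesis (0.50), against a median of 1.03. None of these 3 passed in limma (adjusted p = 0.720, 0.979 and 0.569), and they share with Lcn2 the high arrays, wild type replicate 3 and knockout replicate 4, by which they were chosen.

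The rest of the acute phase programme did not change past the threshold. Of 33 other positive acute phase genes listed, 23 were tested and 0 passed in either direction, with 1 at an unadjusted limma p under 0.05 and a median log2 change of -0.057. The smallest p belonged to Serpina3n, a protease inhibitor, with a log2 change of 0.25 (SE 0.10, limma adjusted p = 0.303). It was followed by C4b, a complement factor (-0.18, SE 0.082, adjusted p = 0.376), and Ceacam1, a cell adhesion receptor (-0.30, SE 0.14, adjusted p = 0.392). Over all tested probes, 13.3% had an unadjusted limma p under 0.05.

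Of 14 negative acute phase genes, 12 were tested. In limma 0 passed and 0 were under an unadjusted p of 0.05, and the median log2 change was 0.035. F12, coagulation factor XII, had -0.16 (SE 0.074, limma adjusted p = 0.379) on its brightest probe and 0.19 and 0.019 on the others. Apoa4, a lipoprotein component, had -1.01 (SE 0.47, adjusted p = 0.419), with 12.86 on wild type replicate 4 and 10.68 to 11.36 on the other wild type arrays. Ttr, the carrier of thyroxine and retinol-binding protein, had 0.074 (SE 0.061, adjusted p = 0.634), and -0.098 with median scaling. The Alb probe was dim, with a mean log2 intensity of 7.56 in wild type and 7.47 in knockout livers. Whether it follows the albumin transcript was not tested. The probes of Trf, Ahsg, Apoa1 and Ttr averaged 14.92 to 15.15 in wild type livers, above the brightest Hp probe (14.82). A change may be compressed there, which was not tested.

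Among inducers, receptors and transcription factors of the response, 21 of 31 listed genes were tested and 0 passed in limma, with 3 lower at an unadjusted p under 0.05. Of all 8105 tested genes, 597 were lower at an unadjusted limma p under 0.05. The median log2 change of the list was -0.18. Nfkbiz, an atypical inhibitor of NF-kB and coactivator, was 8.21, 7.80, 7.97 and 8.42 in wild type livers. In knockout livers it was 7.28, 6.67, 7.43 and 7.36, below each wild type array. Its log2 change was -0.92 (SE 0.20, limma adjusted p = 0.0553), and it passed with array weights (0.0355) and with cyclic loess (0.0485). Without the 3 arrays with high muscle markers described below it was -0.60 (limma adjusted p = 0.568).

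Socs3, the feedback inhibitor of interleukin 6 signalling through STAT3, was 6.88, 7.34, 8.83 and 8.35 in wild type livers. In knockout livers it was 6.16, 6.47, 6.27 and 7.43, so the groups overlapped. The high arrays, wild type replicates 3 and 4, were the same as for Saa3 and Saa2. This was seen in the values, and no share of all tested genes with these arrays highest is given, so it cannot be judged. The log2 change of Socs3 was -1.27 (SE 0.46, limma adjusted p = 0.290). Tyk2, a kinase of cytokine receptors, had -0.33 (SE 0.13, adjusted p = 0.321), with -0.48 and 0.058 on its other probes. The cytokine genes Il6, Il1a, Tnf, Osm and Lif were not above background on any array. Il1b, the gene of interleukin 1 beta, was above background on 3 wild type arrays and 1 knockout array, with a log2 change of -0.76 (SE 0.35, limma adjusted p = 0.383).

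Receptors and partners of the members did not pass either. Fpr2, a receptor of serum amyloid A on phagocytes, was 6.38, 6.73, 7.79 and 8.18 in wild type livers and 7.11, 6.11, 6.77 and 6.47 in knockout livers (log2 change -0.65, SE 0.40, limma adjusted p = 0.517). Cd163, the macrophage receptor for haptoglobin bound to haemoglobin, had -0.64 (SE 0.19, adjusted p = 0.171). Hpx, the haem carrier hemopexin, had 0.069 (SE 0.059, adjusted p = 0.653), and its second probe had -0.093. In all, 6 of 11 listed genes were tested, with a median log2 change of -0.033.

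**Figure D4:**
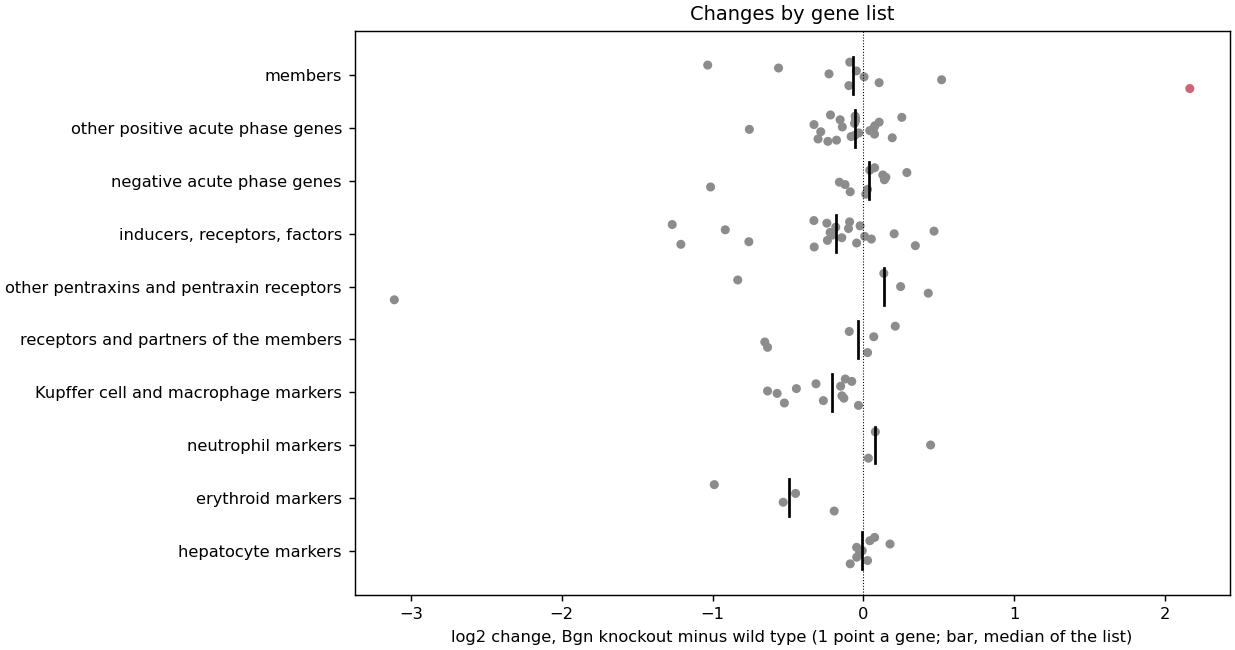
Each point is the log2 change of 1 gene, read from its brightest tested probe, and the black bar is the median of the list; red marks a change past the threshold. Apcs is the gene past the threshold, and Fcer1g lies lowest at -3.11 without passing.

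Other pentraxins and the Fc receptors that bind pentraxins were tested for 5 of 12 listed genes, of which 0 passed in limma, with 3 below an unadjusted p of 0.05. All 5 lie in the stretch of chromosome 1 around Apcs that is described below. Their values are therefore not separate from those of that stretch. The long pentraxin Ptx3 was not above background on any array. Mptx1, a mucosal pentraxin, had 0.14 (SE 0.19, limma adjusted p = 0.809). Fcgr4, an activating Fc receptor, had -0.83 (SE 0.23, adjusted p = 0.145), and the inhibitory Fcgr2b had 0.43 (SE 0.20, adjusted p = 0.371) and 0.32 on a second probe.

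Fcer1g encodes the signalling gamma chain shared by activating Fc receptors. It was 8.83, 8.77, 8.73 and 9.14 in wild type livers. In knockout livers it was 8.58, 4.61, 5.39 and 4.45, so that replicate 1 was near the wild type values and the other 3 were far below. It was above background on 2 of the 4 knockout arrays. The log2 change was -3.11 (SE 0.92, limma adjusted p = 0.230). It was -1.57 without background correction and -1.65 in the authors' normalized values. It passed without knockout replicate 1 (-4.05, limma adjusted p = 5.43e-06), the array nearest to wild type, and without the 3 arrays with high muscle markers (-3.86, 0.00105), which include it. Without any other single array it did not pass (limma adjusted p = 0.298 to 0.467). The 12 tested macrophage markers had log2 changes from -0.64 (Cd163) to -0.033 (Adgre1), with a median of -0.21. For the changes of these markers in whole liver, fewer cells of a type and less RNA per cell cannot be told apart. Summed on the normalized scale before log2, the markers were 4660, 3232, 3915 and 4875 on knockout replicates 1 to 4. In wild type livers the sums were 4174 to 5759. The part of macrophage number in the Fcer1g values was not tested.

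Apcs, Crp and Fcer1g lie on the same chromosome, and the genes around the 2 pentraxins were therefore read in order. Among the 10 tested genes on each side of Crp and Apcs on chromosome 1 (order from assembly GRCm38.p6), 1 of 20 passed. It was Ackr1, a scavenging receptor of chemokines and the tested gene that follows Apcs in this order. Its log2 intensity was 5.22, 5.90, 5.51 and 5.83 in wild type livers. In knockout livers it was 6.12, 7.15, 7.01 and 6.84, with replicate 1 again the lowest. The log2 change was 1.16 (SE 0.25, limma adjusted p = 0.0491), and it missed the threshold under 14 of 18 alternatives (limma adjusted p up to 0.181). It was 0.44 without background correction. Among the 10 tested genes on each side of the other members, 0 of 20 passed beside each of Lcn2, the Orm genes and Hp. Beside the Saa cluster on chromosome 7, 1 of 20 passed, the clock output gene Dbp, with a log2 change of -3.53 (SE 0.20, limma adjusted p = 8.01e-07).

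A longer stretch of 51 tested genes, from 40 before to 10 after Apcs, was read after these values were seen, and without a test. On knockout replicate 1, 1 of the 51 genes, Apcs itself, lay more than 1 log2 unit from the wild type mean. On knockout replicates 2, 3 and 4 it was 7, 6 and 7 genes. Over all 8105 tested genes, the share past that size was 2.25% on knockout replicate 1 and 3.07%, 2.80% and 3.55% on replicates 2 to 4. Uap1, an enzyme of amino sugar synthesis, differed from the wild type mean by -0.092 on knockout replicate 1 and by -2.91, -2.79 and -2.20 on replicates 2 to 4. Rgs5, a regulator of G protein signalling, lay 0.015 above the wild type mean on replicate 1 and 1.33, 1.46 and 1.42 above it on the others. Both genes were chosen for this pattern, so these values are a description. With Fcer1g, Apcs and Ackr1, they were among the genes counted on each of knockout replicates 2 to 4. The stretch was chosen after values were seen, so its counts are no independent comparison with all tested genes. Crp, in the same stretch, lay between -0.26 and 0.032 of the wild type mean on all 4 knockout arrays. The labels do not say how the mice were bred, and whether the difference of Apcs goes with the loss of Bgn or with this stretch of chromosome 1 cannot be told apart.

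**Figure D5:**
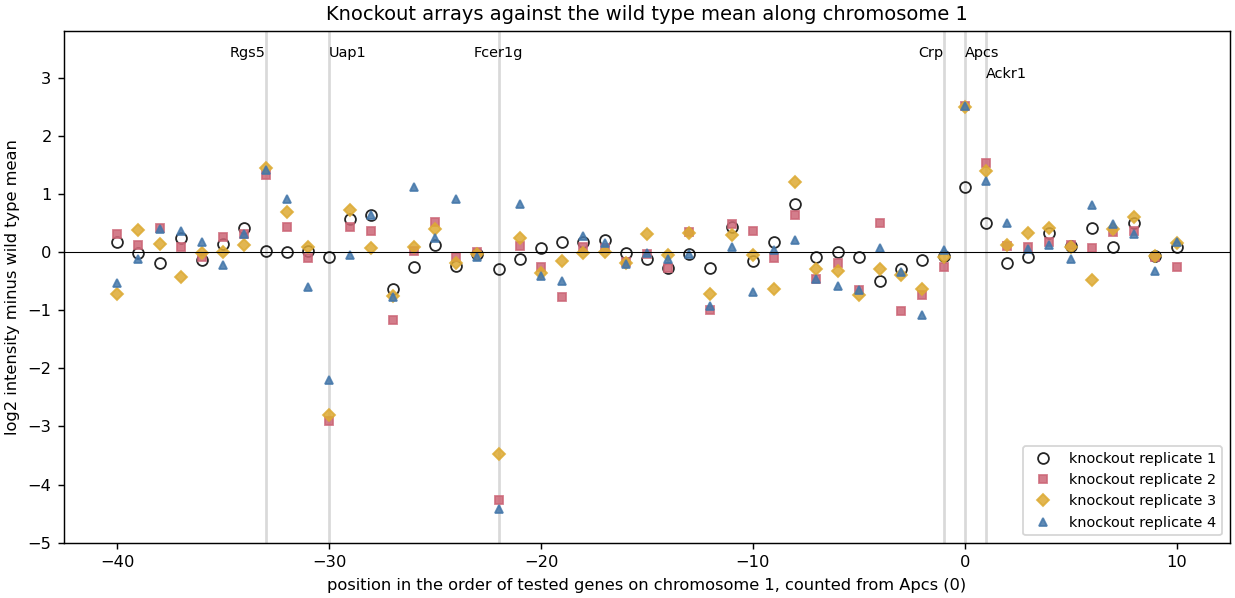
The log2 intensity of each Bgn knockout array minus the wild type mean is plotted for 51 tested genes of chromosome 1, in their order, with Apcs at 0. Knockout replicate 1 (open circles) stays within 1 unit of the wild type mean except at Apcs, where it is at 1.12, while replicates 2 to 4 depart at Rgs5, Uap1, Fcer1g, Apcs and Ackr1.

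Signals of other cells and facts of the whole series bear on these values as follows. Bgn itself was 3660 ± 918 in wild type and 190 ± 15.3 in knockout livers (deposited intensity, SD, n = 4 each). Array medians lay between 141 and 164, and 11352 to 11910 probes were above background. On the normalized scale before log2, hepatocyte markers (9 of 13 tested) summed to 177226 to 185861 in wild type and 180240 to 188425 in knockout livers. Quantile normalization gives all arrays the same distribution, so a sum over such bright probes can vary little. The other marker sums are on the same scale. Kupffer cell and macrophage markers (12 of 15 tested) summed to 4174 to 5759 in wild type and 3232 to 4875 in knockout livers. Of these markers, 12 of 12 had log2 changes below 0, with 0 past the threshold in limma and 4 at an unadjusted p under 0.05. Of all 8105 tested genes, 4098 had log2 changes below 0 and 597 were lower at an unadjusted limma p under 0.05. The 3 macrophage markers with the smallest p were Cd163, Clec4f (-0.44) and Aif1 (-0.52). Neutrophil markers (3 of 13 tested) summed to 150.2 to 305 in wild type and 202 to 275 in knockout livers, S100a8 had 0.45, S100a9 0.079 and Mmp9 0.033, and Elane, Ngp, Retnlg, Mmp8 and Cxcr2 were not above background on any array. Erythroid markers (4 of 10 tested) summed to 23421 to 31336 in wild type and 13348 to 22610 in knockout livers, with -0.99 for Slc4a1 (limma adjusted p = 0.0682), -0.53 for Hba-a1 and -0.45 for Hbb-bt. The part of these cells in the values of the members was not tested.

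Skeletal muscle markers (5 of 12 tested) were high on wild type replicate 4 and knockout replicates 1 and 2. Their summed normalized intensities were 18758, 5700 and 27387 on these arrays, against 198.5 to 226 on the other 5 arrays. Leaving out these 3 arrays, an alternative chosen after seeing the data, left wild type replicates 1 to 3 and knockout replicates 3 and 4. Then 27 of the tested probes passed, and Apcs was 1 of them with a log2 change of 2.54 (limma adjusted p = 0.000534). No other member probe passed. The arrays left out include knockout replicate 1, the lowest knockout array for Apcs. Without that array alone Apcs had 2.51 (limma adjusted p = 2.67e-06), so the 2 effects are not separated. The part of muscle RNA in the differences between arrays was not tested.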

How the data were processed

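The members and gene lists were chosen with earlier results of these data known. The deposited intensity values of the authors are linear mean bead signals per probe, not background-subtracted or normalized, with a detection p-value per probe and array, per the file headers. The labels do not say how the authors made the detection p-value. A second table holds the authors' normalized intensity, used as an alternative. Per the submitters' processing notes, lumi 2.10.0 and R 2.15.0 were used, with no step given.

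Columns were matched to samples through the sample descriptions. With limma 3.58.1 in R 4.3.3, neqc used the detection p-values for normexp background correction (offset 16), then quantile normalization and log2. Probes with detection p under 0.05 on at least 4 of 8 arrays were tested (11494 probes, 8105 genes). Genotypes were compared with lmFit and eBayes (trend, robust), without covariates, with Benjamini-Hochberg adjustment over all tested probes. The fit was tested on simulated data. The platform table gives 1 symbol to 23978 probes, no symbol to 1719 and several to 0. Of these, 23962 matched by Entrez number the RefSeq gene table (GRCm38.p6), used for symbols and gene order. A list gene is read from its brightest tested probe. Named are all members, list genes past the threshold or else the 3 with the smallest p, called neighbours within 10 tested genes, and the 3 probes nearest in pattern to Apcs and to the member that varied most within groups. Fgl1, Lbp, Uap1 and Rgs5 were added after their values were seen. Plots used matplotlib 3.10.9 (Python 3.11.15). The labels do not name litters or batches, so p-values measure the spread between these mice, and the number of arrays limits the precision. Alternatives were other background corrections, scalings, filters, variance models weights per array, a block on the replicate number, and leaving out arrays.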

Additional observations from a re-analysis of the deposited data

Results flagged for a closer look

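In groups of 4 arrays, a value was singled out where its gap to the nearest array, divided by the range of the group, exceeded Dixon's 95% critical value for 4 samples. Of 104 groups checked, 15 met this. Chance gives about 1 in 20 for unselected, independent values, which does not apply to the whole set, since some genes were chosen for their pattern over the arrays and the muscle genes share 1 array. All values are log2 intensities.

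Among the members, knockout replicate 1 had 10.27 for Apcs, while the other knockout arrays had 11.65 to 11.67. On knockout replicate 4, Saa2 was 6.23 (others 5.53 to 5.65) and Orm2 was 10.77 (others 10.44 to 10.48).

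Among acute phase genes and partners, Serpina3n was 13.71 on wild type replicate 3 (others 13.37 to 13.42), Hpx was 14.94 on wild type replicate 2 (others 15.10 to 15.13) and Trf was 15.14 on wild type replicate 4 (others 15.16). The Trf values of wild type replicates 1 to 3 were equal after quantile normalization, so any difference on replicate 4, however small, meets the rule. S100a8 was 7.63 on wild type replicate 1 (others 6.30 to 6.46), and Hba-a1 was 13.15 on knockout replicate 3 (others 14.05 to 14.19).

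On chromosome 1, Rgs5 was 6.75 on knockout replicate 1 (others 8.06 to 8.19) and Uap1 was 9.60 on wild type replicate 3 (others 9.31 to 9.32). Of the probes like Apcs or Lcn2 in pattern, Slc7a2 was 7.59 on knockout replicate 2 (others 7.19 to 7.20) and Plin5 was 9.45 on knockout replicate 4 (others 7.61 to 7.85). The muscle genes Pvalb, Atp2a1 and Tnnt3 were 10.21, 12.98 and 11.03 on wild type replicate 4, against at most 5.52, 5.25 and 4.68 on the other wild type arrays.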

How the results depend on the processing

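The log2 change of Apcs was above 0 under all 19 alternatives run (1.93 to 2.54, limma adjusted p up to 0.0709) and did not pass with array weights (2.02, limma adjusted p = 0.0625), where 0 member probes passed. Leaving out 1 array gave 2.04 to 2.51 for Apcs, 0 to 1 member probes and 59 to 121 of all tested probes past the threshold. It lost the call of Apcs for 4 of 8 arrays. The number of all probes past the threshold was 197 with array weights, 64 with the replicate number as a block and 27 without the 3 arrays with high muscle markers. The labels do not say whether the replicate numbers pair the arrays. Deviations of same-numbered arrays had correlations of 0.057, -0.059, -0.30 and -0.12, which cannot decide it. With the replicate block Apcs kept 2.16 (limma adjusted p = 0.00214). None of the other 11 member probes passed under any of 208 alternatives, of which 17 turned the sign. Median scaling gave -0.15 for Orm1, -0.021, -0.031 and -0.050 for Hp, -0.098 for Ttr, -0.098 for Hpx, -0.12 for Trf, -0.17 for Apoa1 and 0.0050 for Plin5. Cyclic loess gave -0.095 for Orm1, -0.029 for Ttr, -0.025 for Hpx, -0.046 for Trf and -0.10 for Apoa1. The authors' normalized values gave -0.042 for Orm1 and -0.044 for Apoa1, and array weights gave -0.012 for Orm1. Without the arrays with high muscle markers, Saa1 had 0.062, Saa4 0.018, Orm1 -0.086, Plin5 0.47 and Fgl1 0.031. Leaving out 1 array gave -0.22 to 0.099 for Saa1, -0.22 to 0.026 for Saa4, -0.052 to 0.038 for Orm1, -0.065 to 0.28 for S100a9, -0.038 to 0.10 for Mmp9, -0.48 to 0.22 for Plin5 and -0.58 to 0.13 for Fgl1. The cause was not tested. Saa2 was not tested with a detection p under 0.01 on all arrays, since its highest detection p was 0.020.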
